A study of Mus musculus with 21 samples.

Results

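Nlrp2, Nlrp4a, Nlrp4b, Nlrp4f, Nlrp9a, Nlrp9b, Nlrp9c and Nlrp14 are 8 mouse genes of the Nlrp family whose transcripts are known from oocytes and which are not counted here among the core genes of the subcortical maternal complex. They were chosen by name, as 8 of the 55335 genes listed in every deposited expression table. Transcript levels came from RNA-seq of MII oocytes (mature eggs arrested in the second meiotic division) and of granulosa cells, the somatic cells that surround the oocyte in the follicle. Both cell types were taken from the ovaries of female ICR mice, with 12 oocyte libraries and 9 granulosa libraries in all. Young mice were 6 to 8 weeks old, and Aged mice were 18 months old. The other 3 groups were Aged mice of the same strain that had received human umbilical cord mesenchymal stem cells (UC-MSCs) under the ovarian capsule 3 weeks before collection. These cells were either not sorted (Aged + Unsorted), sorted for high surface LRP1 (Aged + LRP1high) or sorted for low surface LRP1 (Aged + LRP1low), LRP1 being an endocytic receptor of the LDL receptor family. Oocyte libraries numbered 3 for Young, 2 for Aged, 2 for Aged + Unsorted, 3 for Aged + LRP1high and 2 for Aged + LRP1low. Granulosa libraries numbered 1 for Young, 2 for Aged, 1 for Aged + Unsorted, 3 for Aged + LRP1high and 2 for Aged + LRP1low. The sources used here do not say how many cells or animals went into a library, so each p-value measures the spread between these libraries, which may be technical.

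Nlrp proteins carry an N-terminal pyrin domain, a central nucleotide-binding NACHT domain and C-terminal leucine-rich repeats. Some members, such as NLRP3, act in innate immunity and form inflammasomes with the adaptor ASC (Pycard) and caspase-1. A separate branch of the family is transcribed mainly in oocytes and early embryos, and in mice it grew by local gene duplication, which produced the Nlrp4 and Nlrp9 subfamilies. Its best known member is Nlrp5 (Mater), a core of the subcortical maternal complex together with Ooep, Tle6 and Padi6. Nlrp14 and Nlrp2 are maternal-effect genes, meaning that the embryo depends on the product that the mother stored in the egg.

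Of the 8 genes, 7 lie on chromosome 7 and Nlrp4f lies on chromosome 13. In GRCm38, the build that the coordinates in the tables match, the chromosome 7 genes are Nlrp2 (chr7:5298547-5351035, minus strand), Nlrp4b (chr7:10687789-10730168, plus strand), Nlrp9b (chr7:19991465-20073306, plus strand), Nlrp9c (chr7:26322473-26403700, minus strand), Nlrp4a (chr7:26435113-26476142, plus strand), Nlrp9a (chr7:26535023-26575615, plus strand) and Nlrp14 (chr7:107166990-107198102, plus strand). Nlrp4f spans chr13:65177111-65205977 on the minus strand. Nlrp9c, Nlrp4a and Nlrp9a form a cluster in which 31.4 kb without another annotated gene separate Nlrp9c from Nlrp4a, and 58.9 kb with 1 annotated gene (Gm25947) separate Nlrp4a from Nlrp9a.

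The RefSeq promoter table (GRCm38.p6) held an entry for 7 of the 8 genes, all but Nlrp14. Upstream sequences of 5 genes are shown because they share a CCAAT box and because neighbouring copies resemble each other. Each is the 150 bases before an annotated transcript start, written 5′ to 3′ on the strand of the gene, with every CCAAT in capitals. They are Nlrp9a at chr7:26534873-26535022 (plus), Nlrp9c at chr7:26403701-26403850 (minus), Nlrp4a at chr7:26435464-26435613 (plus, the second of its annotated starts), Nlrp4b at chr7:10687643-10687792 (plus, the first of its annotated starts) and Nlrp2 at chr7:5351036-5351185 (minus).
Nlrp9a: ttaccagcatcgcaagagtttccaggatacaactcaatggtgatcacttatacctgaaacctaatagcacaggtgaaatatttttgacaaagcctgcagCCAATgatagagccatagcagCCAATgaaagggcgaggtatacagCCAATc
Nlrp9c: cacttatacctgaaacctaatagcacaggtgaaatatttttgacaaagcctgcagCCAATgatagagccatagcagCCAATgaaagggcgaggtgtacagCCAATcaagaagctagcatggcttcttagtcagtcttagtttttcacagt
Nlrp4a: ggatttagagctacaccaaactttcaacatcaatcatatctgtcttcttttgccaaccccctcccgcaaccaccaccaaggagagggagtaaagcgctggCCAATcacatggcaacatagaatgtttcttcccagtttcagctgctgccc
Nlrp4b: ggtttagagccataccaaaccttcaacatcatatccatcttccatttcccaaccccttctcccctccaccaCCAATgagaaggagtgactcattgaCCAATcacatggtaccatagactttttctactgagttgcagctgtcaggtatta
Nlrp2: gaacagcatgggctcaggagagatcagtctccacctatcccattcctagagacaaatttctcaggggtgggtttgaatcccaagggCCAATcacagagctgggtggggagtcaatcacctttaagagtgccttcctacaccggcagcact

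CCAAT was searched on both strands of the 250 bases before each start and was found for 5 of the 7 genes. Nlrp4a and Nlrp4b each had 2 annotated starts, and the first window of Nlrp4a held no CCAAT. Thus 6 of the 9 windows held it, against 33.8% of all 32851 RefSeq promoter windows. The 2 windows of Nlrp4b overlap, with 222 of 222 aligned bases identical, so the same copies count in both. The 9 windows are therefore not independent sequences. Nlrp9a and Nlrp9c each held 3 copies, a number above 2 being present in 2.79% of all windows. Counted back from the start, with -1 as the last base before it, the copies began at -51, -30 and -6 in Nlrp9a and at -95, -74 and -50 in Nlrp9c. The longer CCAATCA, each match of which contains a CCAAT, was found for 4 of the 7 genes (Nlrp9c, Nlrp4a, Nlrp4b and Nlrp2) and in 7.23% of all windows. It began at -50 in Nlrp9c and Nlrp4a, at -54 in Nlrp4b and at -64 in Nlrp2. The copy at -6 in Nlrp9a reads CCAATC up to the end of the window, so the longer form could not be searched there. The window of Nlrp9b, the third Nlrp9 copy, and that of Nlrp4f held no CCAAT. Of the other motifs searched on both strands, the E-box CANNTG was found for 6 of 7 genes (66.2% of all windows), TAATTG for 2 (7.17%), TAATTA for 1 (4.84%) and TATAAA for 1 (12.4%). The upstream windows of Nlrp9a and Nlrp9c were 96.1% identical over 203 aligned bases, and those of Nlrp4a and Nlrp4b shown above were 79.1% identical over 230. A match of these letters is a description of the sequence, and binding was not measured.

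The transcripts of the copies were also alike. Nlrp9a and Nlrp9c transcripts were 88.2% identical, Nlrp9a and Nlrp9b 84.0%, and Nlrp4a and Nlrp4f 82.9%. Of all 50-base words in the transcript, 6.54% in Nlrp9a, 6.22% in Nlrp9b, 4.99% in Nlrp9c and 7.08% in Nlrp4f also occurred in another gene, and for Nlrp4f that gene was mostly Nlrp4g. Nlrp14 and Nlrp4b shared no such word, so their counts were the least exposed to reads that fit several copies, while levels of the Nlrp9 genes are uncertain to that extent. Nlrp2 overlaps the opposite-strand genes Gm18757 and Gm5065, Nlrp9b overlaps n-R5s152 and Gm18877, and Nlrp4b overlaps Gm45379.

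Several libraries stood apart. The median FPKM (fragments scaled to transcript length and to the mapped fragments of the library) of 10 oocyte marker genes ran from 84.9 to 1001 in 8 oocyte libraries, but was 0.892 in Young 1, 11.6 in Aged 1, 5.02 in Aged + LRP1low 1 and 7.77 in Aged + LRP1low 2. Aligned bases ran from 0.278 to 3.40 Gb over the 12 oocyte libraries and from 0.335 to 1.49 Gb over the 9 granulosa libraries. Both Aged + LRP1low oocyte libraries were shallow, at 0.515 and 0.278 Gb, and listed 47920 and 38934 genes at 1 FPKM or more, against 3135 to 27970 in the other oocyte libraries. In the granulosa set, Aged + Unsorted 1 had an oocyte marker median of 800 FPKM and a granulosa marker median of 0.60 FPKM, which goes against its label. It entered no comparison, although it entered the filter on low values. Granulosa markers were also low in libraries that were compared. Their median was 0.0482 and 0.112 FPKM in granulosa Aged 1 and 2, 0.271 and 0.243 in Aged + LRP1low 1 and 2, and 0.800, 0.326 and 21.4 in Aged + LRP1high 1, 2 and 3. It was 74.9 FPKM in Young 1. The granulosa Aged libraries listed only 2734 and 2089 genes at 1 FPKM or more. Because the material was bulk RNA, fewer oocytes in a sample and less RNA per oocyte cannot be told apart in any value below.

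The summed level of the 8 genes was between 447 and 2311 FPKM in 8 oocyte libraries and between 12.8 and 79.5 FPKM in the other 4, although single genes departed from this. Summed over the 8 genes, the level was 12.8, 447 and 1852 FPKM in the 3 Young libraries, 79.5 and 1344 in Aged, 1592 and 2311 in Aged + Unsorted, 1849, 1261 and 1551 in Aged + LRP1high, and 29.1 and 26.4 in Aged + LRP1low. Young and Aged thus each held a library more than 10-fold below its highest, while the libraries of each transplanted group lay close together.

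Nlrp14, the most abundant of the 8, was at 8.51, 249 and 988 FPKM in Young oocytes, at 47.2 and 685 in Aged, at 848 and 1044 in Aged + Unsorted, at 941, 703 and 1227 in Aged + LRP1high, and at 4.13 and 6.02 in Aged + LRP1low. All 5 libraries of Aged + Unsorted and Aged + LRP1high were above both Aged libraries, and both Aged + LRP1low libraries were below every other oocyte library. Group means with their SD over the 2 or 3 libraries were 415 ± 510.4 FPKM for Young, 366 ± 451 for Aged, 946 ± 138 for Aged + Unsorted, 957 ± 262 for Aged + LRP1high and 5.07 ± 1.34 for Aged + LRP1low. In Young and Aged the SD exceeded the mean. Among all 55335 genes, Nlrp14 ranked between 26th and 149th by FPKM in the 8 libraries with an oocyte marker median of 20 FPKM or more. It ranked 178th in Aged 1 and 1095th in Young 1, and only 23675th and 9264th in Aged + LRP1low. Nlrp14 is needed in the egg for the embryo to develop after fertilisation.

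Nlrp2, the other maternal-effect gene of the set, was the least abundant on average by FPKM. It was at 0.168, 19.5 and 39.8 FPKM in Young oocytes, at 1.41 and 46.1 in Aged, at 15.5 and 62.6 in Aged + Unsorted, at 50.02, 5.06 and 33.1 in Aged + LRP1high, and at 3.53 and 3.42 in Aged + LRP1low. Its Aged + LRP1high libraries spread almost 10-fold, and the lowest of them lay just above both Aged + LRP1low libraries.

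Of the Nlrp4 copies, Nlrp4f was the highest. It has been linked to the cytoplasmic organisation of the egg. Its level was 0.479, 48.5 and 239 FPKM in Young oocytes, 9.20 and 189.6 in Aged, 422 and 448 in Aged + Unsorted, 234, 222 and 70.7 in Aged + LRP1high, and 3.17 and 4.798 in Aged + LRP1low. The 2 Aged + Unsorted libraries were the highest of all 12. Nlrp4a, its close copy on chromosome 7, was at 0.841, 36.2 and 78.7 FPKM in Young oocytes, at 6.69 and 85.3 in Aged, at 94.0 and 153 in Aged + Unsorted, at 80.2, 107 and 30.4 in Aged + LRP1high, and at 3.25 and 0.990 in Aged + LRP1low. Both genes were higher in each Aged + Unsorted library than in either Aged library. Nlrp4b was at 0.279, 5.64 and 127 FPKM in Young oocytes, at 7.91 and 113 in Aged, at 44.99 and 185 in Aged + Unsorted, at 123, 29.0 and 11.9 in Aged + LRP1high, and at 3.29 and 2.38 in Aged + LRP1low. It spread over 10-fold within Aged + LRP1high.

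The Nlrp9 copies differed among themselves in how they spread. Nlrp9a was at 0.262, 1.20 and 86.9 FPKM in Young oocytes, at 0 and 56.7 in Aged, at 60.0 and 94.8 in Aged + Unsorted, at 120.1, 97.0 and 122 in Aged + LRP1high, and at 2.42 and 2.21 in Aged + LRP1low. The 3 Aged + LRP1high libraries were the highest of all 12 for this gene and lay close together. Nlrp9b, which in the intestine is known as a sensor of rotavirus RNA, was at 1.60, 1.39 and 89.0 FPKM in Young oocytes, at 2.87 and 82.6 in Aged, at 49.2 and 107 in Aged + Unsorted, at 105, 9.54 and 49.5 in Aged + LRP1high, and at 6.45 and 2.46 in Aged + LRP1low. Nlrp9c was at 0.618, 85.1 and 204 FPKM in Young oocytes, at 4.23 and 85.7 in Aged, at 57.3 and 217 in Aged + Unsorted, at 196, 88.3 and 6.13 in Aged + LRP1high, and at 2.85 and 4.17 in Aged + LRP1low. Nlrp9c therefore fell in different places from Nlrp9a: it was 85.1 FPKM where Nlrp9a was 1.20 (Young 2), and 6.13 where Nlrp9a was 122 (Aged + LRP1high 3).

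**Figure D1:**
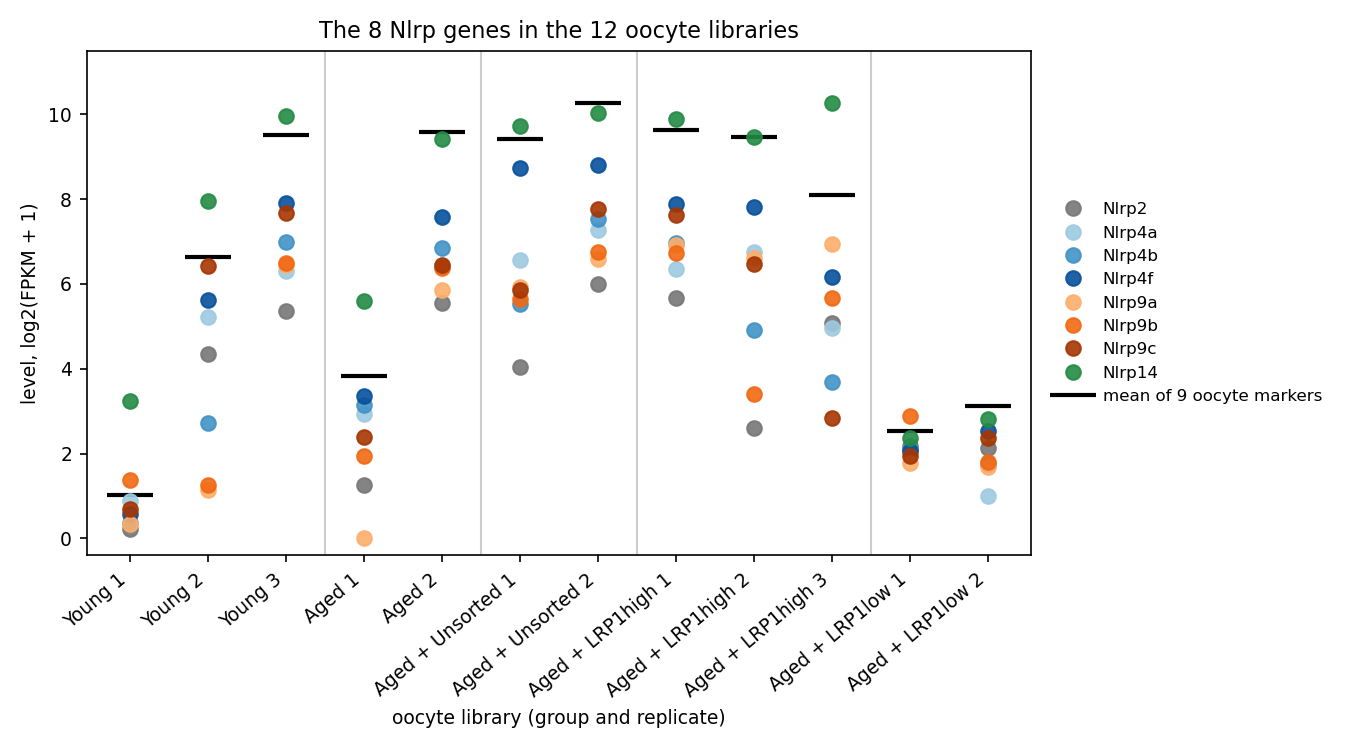
Level of each of the 8 Nlrp genes, as log2(FPKM + 1), in the 12 oocyte libraries, 1 point per gene and library, with a black bar at the mean of 9 oocyte markers. Nlrp14 (green) sits at 4.13 and 6.02 FPKM in Aged + LRP1low and between 703 and 1227 FPKM in Aged + LRP1high.

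Ordered by their mean level over the 12 oocyte libraries, on the log2(FPKM + 1) scale, the genes ran Nlrp14 (7.56 ± 3.14, SD), Nlrp4f (5.75 ± 2.89), Nlrp9c (4.88 ± 2.61), Nlrp4a (4.73 ± 2.36), Nlrp4b (4.38 ± 2.41), Nlrp9b (4.19 ± 2.28), Nlrp9a (4.19 ± 2.88) and Nlrp2 (3.71 ± 1.95). FPKM is scaled to transcript length, but mean read depth gave another order for some genes. In Young 3, Nlrp9c was at 204 FPKM with a depth of 115, and Nlrp4a at 78.7 FPKM with a depth of 225. In Aged 2 the depth of Nlrp9c (17.0) was below that of Nlrp2 (27.6). Nlrp9b, at 89.0 FPKM in Young 3, had a depth of 133, against 264 for Nlrp9a at 86.9 FPKM. The order of the genes, and the shares given below, therefore hold for FPKM only. Within libraries Nlrp14 was above Nlrp4f in 12 of 12, by 1.81 ± 1.05 in log2(FPKM + 1) (SD of the paired differences, n = 12). Nlrp4f was above Nlrp9c in 10 of 12, by 0.87 ± 1.21, which did not exceed the spread. All later neighbours differed by 0.48 or less on average, with SDs from 1.05 to 1.81, and none of them held its order in more than 8 of 12 libraries.

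The make-up of the family transcript pool was more even than its size. As a share of the summed FPKM of the 8 genes, Nlrp14 made up 66.7%, 55.8% and 53.3% in Young oocytes, 59.4% and 50.9% in Aged, 53.3% and 45.2% in Aged + Unsorted, 50.9%, 55.7% and 79.1% in Aged + LRP1high, and 14.2% and 22.8% in Aged + LRP1low. The last 2 were the lowest of the 12. By FPKM, the leading member was Nlrp9b, at 22.2%, in Aged + LRP1low 1 and Nlrp14 in the other 11 libraries. By mean read depth, Nlrp9b (0.635) was below Nlrp4f (1.48) in Aged + LRP1low 1. In Aged + LRP1low 2, Nlrp14 (depth 0.886) was below Nlrp4f (depth 1.22). The lead in both Aged + LRP1low libraries thus holds for FPKM only. Nlrp4f made up 26.5% and 19.4% in Aged + Unsorted, and from 3.76% to 18.1% elsewhere. Nlrp9c made up 19.1% in Young 2 and 0.396% in Aged + LRP1high 3. The shares in Aged + LRP1low rest on little sequence, since the mean read depth over the 8 genes there was only 0.232 to 1.48, against 102 to 1615 in Young 3.

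**Figure D2:**
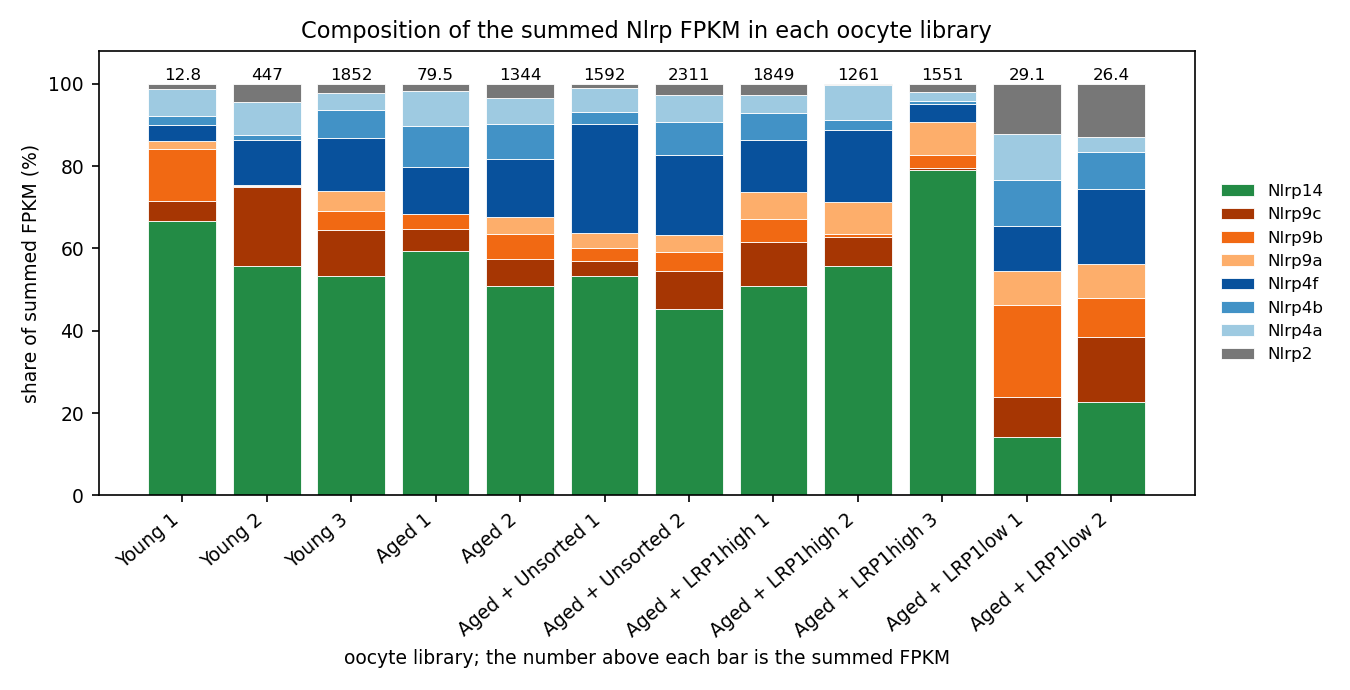
Share of each Nlrp gene in the summed FPKM of the 8 genes (%), 1 stacked bar per oocyte library, with that sum in FPKM written above the bar. Nlrp14 (green) fills 45.2% to 79.1% of the bar in the 10 libraries of the other groups and 14.2% and 22.8% in Aged + LRP1low.

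Differences between groups were fitted on the log2(FPKM + 1) scale with limma across 28004 genes of mean level 1 FPKM or more, and all 8 genes passed that filter. A gene was called when the fold change exceeded 1.5 and the Benjamini-Hochberg adjusted p was under 0.05. Such log2 differences understate the change of genes with low values. Comparisons with Aged use the same 2 Aged libraries and are therefore not independent of each other.

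The comparison of Aged with Young asks what ageing does to these transcripts. None of the 8 genes was called in either direction, against 0.0964% of all genes called higher and 0.00% called lower. Nlrp14 differed by 0.45 (SE 1.64, adjusted p = 0.906), and the 8 differences ran from -0.52 to 1.64 with a median of 0.50, against 0.94 over all genes. The smallest unadjusted p among the 8 was 0.372. No member had groups that did not overlap, against 11.0% of all genes higher and 0.646% lower in Aged. The sign rested on single libraries: without Young 1 the Nlrp14 difference was -1.45, without Aged 2 it was -1.46 and without Aged 1 it was 2.37.

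In oocytes of Aged + Unsorted mice the fitted difference from Aged was positive for all 8 transcripts, though none passed the test. The log2 differences ran from 1.53 to 3.33, with a median of 2.30 against -0.86 over all genes. Nlrp9a differed by 3.33 (SE 1.99, adjusted p = 0.436), Nlrp4f by 3.31 (SE 1.98, adjusted p = 0.436) and Nlrp14 by 2.37 (SE 1.79, adjusted p = 0.460). None of the members and 0.00% of all genes were called. In 4 of the 8 genes, namely Nlrp14, Nlrp4f, Nlrp4a and Nlrp9a, both transplanted libraries were above both Aged libraries, against 10.3% of all genes. The size rested on the Aged libraries: the median was 0.39 without Aged 1 and 4.27 without Aged 2. The 10 oocyte markers differed by 1.86 to 3.87 in the same comparison, and their part in the result was not tested.

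Aged + LRP1high oocytes also had positive differences from Aged in all 8 genes, and again none was called, against 0.0179% of all genes called higher and 0.753% called lower. Nlrp9a had the largest, 3.90 (SE 1.81, unadjusted p = 0.0544, adjusted p = 0.370), and Nlrp14 differed by 2.36 (SE 1.64, adjusted p = 0.398). The range was 0.19 to 3.90 and the median 1.29, against -1.05 over all genes. Nlrp9a and Nlrp14 were the 2 genes whose groups did not overlap, against 3.85% of all genes. Aged 1 carried much of this: without it, the Nlrp9a difference was 0.98, the Nlrp14 difference was 0.45 and the median was -0.60. Without Aged 2, Nlrp9a differed by 6.83. Each of these fits left 1 library in Aged. All 10 oocyte markers had positive differences too, from 1.31 to 3.06, and scaling to 9 of them changed 6 of the 8 signs.

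In Aged + LRP1low oocytes the 8 differences from Aged were all negative, from -4.92 to -1.20, with a median of -2.66 against 0.68 over all genes. The lowest was that of Nlrp14, -4.92 (SE 1.79, unadjusted p = 0.0190, adjusted p = 0.205), and that of Nlrp4f was -3.17 (SE 1.98, adjusted p = 0.541). None was called, against 0.0750% of all genes called lower. Nlrp14 was the 1 member under an unadjusted p of 0.05, against 0.953% of all genes. Both Aged + LRP1low libraries were below both Aged libraries for 5 of the 8 genes, Nlrp14, Nlrp4f, Nlrp4b, Nlrp4a and Nlrp9c, against 9.55% of all genes. The median was -4.59 without Aged 1 and -0.64 without Aged 2. The 10 oocyte markers also had negative differences, from -5.48 to -0.45 with a median of -3.53, while the medians of the granulosa and stromal markers tested were 1.87 and 1.20. With each library scaled to 9 oocyte markers, 7 of the 8 signs changed, and the part of oocyte RNA content in the result was not tested.

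Aged + LRP1high was compared directly with Aged + LRP1low. In all 8 genes the lowest Aged + LRP1high library was above the highest Aged + LRP1low library, against 6.82% of all genes. Nlrp14 was higher by 7.28 (SE 1.64, adjusted p = 0.0217) and Nlrp4a by 4.48 (SE 1.48, adjusted p = 0.0477), and these 2 were called, against 1.21% of all genes called higher. Nlrp9a, at 5.10 (SE 1.81, adjusted p = 0.0561), and Nlrp4f, at 4.98 (SE 1.80, adjusted p = 0.0583), just missed the threshold. The other 4 did not pass it, with differences of 3.49 for Nlrp9c (SE 2.03, adjusted p = 0.182), 3.26 for Nlrp4b (SE 1.76, adjusted p = 0.155), 2.92 for Nlrp9b (SE 1.71, adjusted p = 0.185) and 2.29 for Nlrp2 (SE 1.63, adjusted p = 0.269). The median of the 8 was 3.99, against -1.89 over all genes. An unadjusted p under 0.05 was reached by 4 of the 8, against 3.17% of all genes.

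Neither call held without any 1 of the 5 libraries compared. Without Aged + LRP1high 1, 2 and 3 the adjusted p of Nlrp14 was 0.0683, 0.0597 and 0.0715. Those fits called 0 of 29588, 0 of 29521 and 0 of 29750 genes, so the loss covered all genes. Leaving out an Aged + LRP1low library left 1 in that group, so only differences are given for it. With each of the 5 left out in turn, the differences ran from 7.06 to 7.51 for Nlrp14 and from 3.94 to 5.03 for Nlrp4a. The 10 oocyte markers moved the same way as the members: all 10 had groups that did not overlap and 3 were called higher in Aged + LRP1high. With each library scaled to 9 oocyte markers, the Nlrp14 difference was 1.05 (adjusted p = 0.725). The other 7 were negative, from -3.94 for Nlrp2 to -1.14 for Nlrp9a, and the median was -2.25. That scaled fit called none of the 8 genes but 23903 of all 28004. Both Aged + LRP1low libraries were poor in markers, so the signs after scaling carry the limit given above. Markers of other cells had negative differences in Aged + LRP1high, with 3 of 8 granulosa, 3 of 5 stromal, 2 of 5 immune, 1 of 5 luteal, 1 of 4 endothelial and 0 of 2 red blood cell markers tested called lower, against 24.8% of all genes. Their part in the result was not tested.

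**Figure D3:**
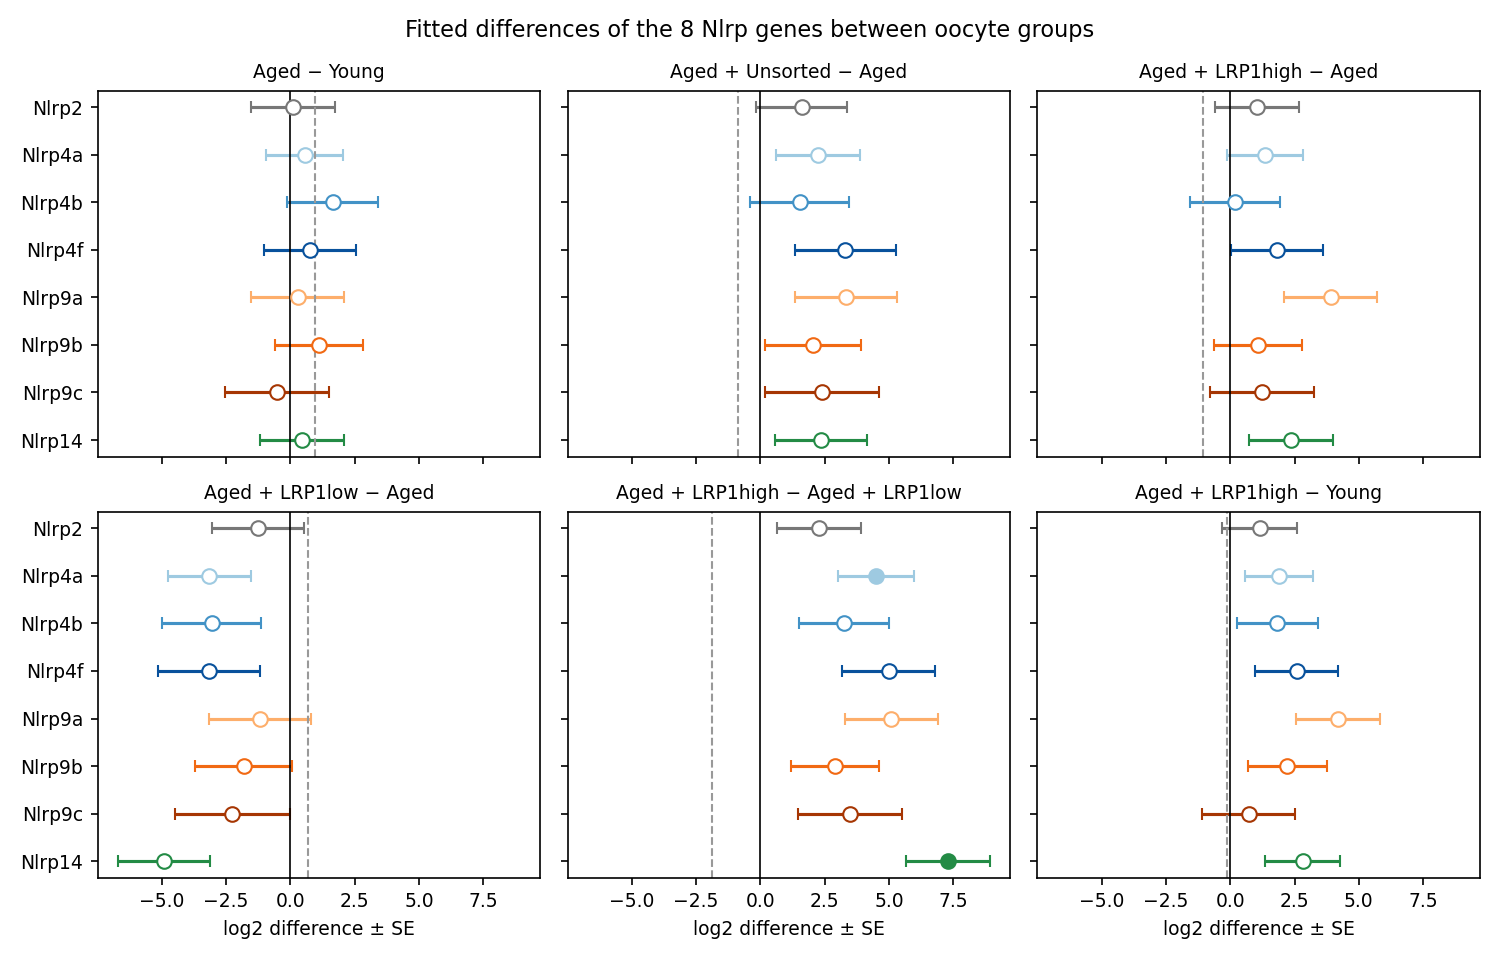
Fitted log2 differences of the 8 Nlrp genes in 6 oocyte comparisons on the log2(FPKM + 1) scale, with bars of 1 SE, filled points for called genes and a dashed line at the median of all genes tested. The LRP1high minus LRP1low differences run from 2.29 to 7.28, and Nlrp14 and Nlrp4a are the 2 called.

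Against Young, Aged + LRP1high oocytes had differences from 0.71 to 4.18 with a median of 2.05, against -0.14 over all genes. Nlrp9a differed by 4.18 (SE 1.62, unadjusted p = 0.0256) and Nlrp14 by 2.81 (SE 1.46, unadjusted p = 0.0809), both with an adjusted p of 1. Nlrp9a was the 1 member under an unadjusted p of 0.05, against 2.96% of all genes. No member and 0.00% of all genes were called. Only Nlrp9a had groups that did not overlap, against 1.67% of all genes higher. Without Young 1 the median was 0.42 and the Nlrp14 difference 0.91, and without Young 3 they were 3.79 and 4.26. The 10 oocyte markers differed by 2.46 to 4.77, and with scaling to 9 of them 7 of the 8 signs changed and the median was -1.29.

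Set against the mean log2 level of 9 oocyte markers in the same library, the level of Nlrp14 differed by 2.22, 1.34 and 0.44 in Young, by 1.75 and -0.17 in Aged, by 0.32 and -0.23 in Aged + Unsorted, by 0.25, -0.0005 and 2.16 in Aged + LRP1high, and by -0.17 and -0.32 in Aged + LRP1low. On this relative scale the Aged + LRP1low values lay close to the lowest values of Aged (-0.17), Aged + Unsorted (-0.23) and Aged + LRP1high (-0.0005). How many of all genes separate groups on this scale was not counted. Low values can also be drawn toward the markers, so no difference between groups is read from it. The high value in Aged + LRP1high 3 belongs to the library with the lowest marker median of its group, 161 FPKM against 687 and 799.

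In granulosa libraries the 8 genes were low apart from the library that goes against its label. Nlrp14 was at 17.2 FPKM in Young 1, at 0.111 and 0.734 in Aged, at 5.43, 1.23 and 0.541 in Aged + LRP1high, and at 0 and 17.0 in Aged + LRP1low, whose 2 libraries thus held the lowest value and one of the highest. The other 7 genes ran from 0 to 7.97 FPKM in these 8 libraries. The summed level of all 8 genes ran from 0.844 to 31.7 FPKM there, against 1746 in Aged + Unsorted 1. In that library Nlrp14 was at 793 FPKM, Nlrp4f at 332 and Nlrp9c at 167. Each of the 8 genes was at 0.719 to 0.780 of its value in the oocyte library Aged + Unsorted 2. Among all 210 pairs of libraries, this pair was the most alike across genes (Pearson r = 0.968, Spearman rho = 0.931, a description across genes, which are not independent replicates).

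**Figure D4:**
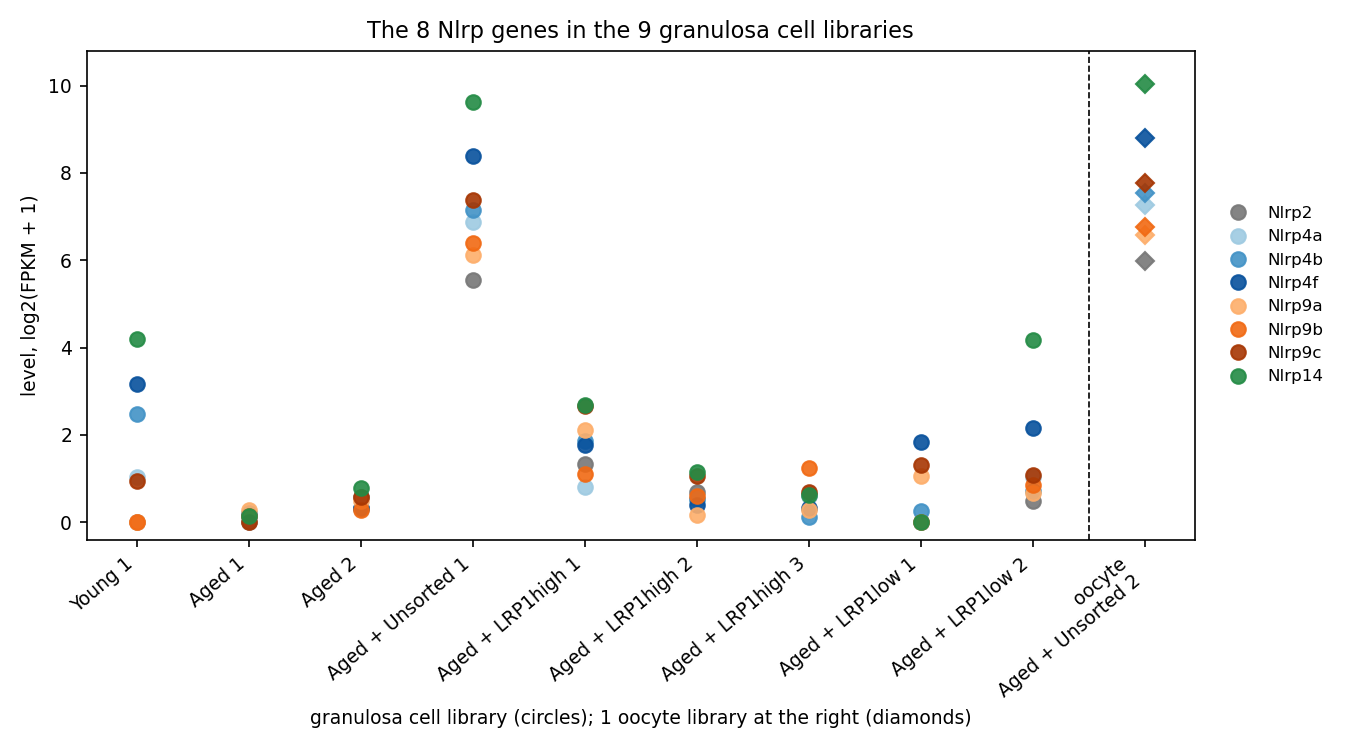
Level of each of the 8 Nlrp genes, as log2(FPKM + 1), in the 9 granulosa libraries (circles, 1 per gene and library) and in the oocyte library Aged + Unsorted 2 (diamonds). Granulosa Aged + Unsorted 1 lies at 45.8 to 793 FPKM, and the other 8 libraries at 17.2 FPKM or below.

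Between granulosa groups no member was called. All 8 genes passed the filter on low values, but 4 of them did so only through Aged + Unsorted 1, and the differences of those 4 are between low values. Aged + LRP1high differed from Aged by 0.39 to 1.18, the largest being Nlrp9c at 1.18 (SE 0.66, adjusted p = 0.458), with 0.00% of all 13002 genes tested called. Groups did not overlap for 5 of the 8 genes, against 50.4% of all genes higher. Aged + LRP1low differed from Aged by -0.05 to 1.77, the largest being Nlrp4f at 1.77 (SE 0.59, unadjusted p = 0.0254, adjusted p = 0.904), again with 0.00% called. It was the 1 member under an unadjusted p of 0.05, against 3.05% of all genes higher. Here 3 of the 8 did not overlap, against 30.5% of all genes higher.

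Oocytes were set against granulosa cells within the 3 conditions that had at least 2 libraries of each, over 21767 genes. The granulosa libraries of Aged and Aged + LRP1low held little granulosa marker RNA, as given above. In Aged, Nlrp14 was the 1 member called, higher in oocytes by 7.03 (SE 1.69, adjusted p = 0.0328), against 6.61% of all genes called higher. The call did not hold without oocyte Aged 2 or without either granulosa Aged library. Each of these fits left 1 library in a group, which was assumed to vary like the other groups. The 8 differences ran from 2.54 to 7.03, with a median of 4.28 against 1.71 over all genes. Groups did not overlap for 7 of the 8 genes, against 38.3% of all genes, and an unadjusted p under 0.05 was reached by 6 of the 8, against 30.2%.

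In Aged + LRP1high, 4 of the 8 genes were called higher in oocytes, against 5.07% of all genes. They were Nlrp14 at 8.38 (SE 1.38, adjusted p = 0.00639), Nlrp4f at 6.45 (SE 1.35, adjusted p = 0.0105), Nlrp9a at 5.98 (SE 1.37, adjusted p = 0.0166) and Nlrp4a at 5.39 (SE 1.12, adjusted p = 0.00999). The smallest difference was that of Nlrp2, 3.57 (SE 1.22, adjusted p = 0.113). In all 8 genes every oocyte library was above every granulosa library, against 11.4% of all genes, and all 8 had an unadjusted p under 0.05, against 13.2%. The median difference was 4.87, against -0.18 over all genes. Nlrp14 stayed called with each of the 6 libraries left out in turn. Nlrp4a was not called without granulosa LRP1high 2 (adjusted p = 0.0518), Nlrp4f was not called without that library (adjusted p = 0.0550) or oocyte LRP1high 1 (adjusted p = 0.0521), and Nlrp9a was not called without oocyte LRP1high 1 (adjusted p = 0.0659), granulosa LRP1high 2 (adjusted p = 0.0819) or granulosa LRP1high 3 (adjusted p = 0.0609).

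In Aged + LRP1low no member was called, against 7.50% of all genes called higher in oocytes. Nlrp14 differed by 0.50 (SE 1.69, adjusted p = 0.809), and the 8 differences ran from 0.29 to 1.92 with a median of 0.99 against 2.04 over all genes. Groups did not overlap for 5 of the 8, against 78.1% of all genes higher. The Nlrp14 difference was -1.59 without granulosa LRP1low 1 and 2.58 without granulosa LRP1low 2.

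Whether a transplant changed oocytes and granulosa cells unequally was tested by the interaction of cell type and group. For Aged + LRP1high against Aged, the interaction ran from -0.38 to 3.44, the largest being Nlrp9a at 3.44 (SE 2.17, unadjusted p = 0.132, adjusted p = 0.350). Without oocyte Aged 2, which left 1 library in that group, that of Nlrp9a was 6.36. For Aged + LRP1low against Aged, it ran from -6.53 to -1.21, with Nlrp14 at -6.53 (SE 2.39, unadjusted p = 0.0143, adjusted p = 0.616), the 1 member under an unadjusted p of 0.05, against 2.47% of all genes. No member and 0.00% of all genes were called in either.

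The genes of the maternal complex stood beside the 8 genes in the same comparisons. Of its 6 genes, 2 were called higher in Aged + LRP1high than in Aged + LRP1low oocytes, Tle6 by 5.94 (adjusted p = 0.0454) and Zbed3 by 7.15 (adjusted p = 0.0333), against 1.21% of all genes, and 6 of 6 had positive differences. Nlrp5, the Nlrp gene of the complex, differed by 2.92 (adjusted p = 0.237). It was at 192, 178 and 34.7 FPKM in Aged + LRP1high and at 4.76 and 34.0 in Aged + LRP1low. Its higher Aged + LRP1low library thus lay next to the lowest Aged + LRP1high library. In oocytes against granulosa cells, 6 of 6 were called higher in Aged + LRP1high, against 5.07% of all genes, and 4 of 6 in Aged, against 6.61%.

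Of 11 other Nlrp genes, 6 passed the filter and none was called higher in Aged + LRP1high than in Aged + LRP1low. Nlrp6 at -2.59 (adjusted p = 0.0477) and Nlrp12 at -2.23 (adjusted p = 0.0355) were called lower, against 24.8% of all genes. Nlrp4e, a further Nlrp4 copy, was at 31.4, 35.2 and 36.0 FPKM in Aged + LRP1high and 3.25 and 2.39 in Aged + LRP1low, and was called higher in oocytes than in granulosa cells of Aged + LRP1high (4.23, adjusted p = 0.0159). Nlrp3, the inflammasome sensor, named here after its values were seen, was at 0, 0.144 and 0.0370 FPKM in Aged + LRP1high, at 2.58 and 0 in Aged, and at 4.55 and 3.62 in Aged + LRP1low. In both Aged + LRP1low libraries Nlrp3 was thus in the range of the 8 oocyte Nlrp genes.

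Of 11 inflammasome genes, 8 passed the filter and 2 were called lower in Aged + LRP1high than in Aged + LRP1low, a share near the 24.8% of all genes called lower. They were Casp4 at -2.80 (adjusted p = 0.0193) and Naip5 at -2.20 (adjusted p = 0.0377). Casp4, an inflammatory caspase, had a listed value of 0 in each Aged library and in 2 of 3 Aged + LRP1high libraries, and was at 5.85 and 6.42 FPKM in Aged + LRP1low. It was called higher in Aged + LRP1low than in Aged (2.83, adjusted p = 0.0421), against 3.09% of all genes, and higher in oocytes than in granulosa cells of Aged + LRP1low (2.43, adjusted p = 0.0438). The Aged + LRP1low values alone were enough to take Casp4 over the filter on low values among oocytes. Its calls against Aged and Aged + LRP1high thus rest on the group that could admit it and are no independent support. Nlrc4, a sensor partner of Naip proteins, was called higher in oocytes than in granulosa cells of Aged + LRP1high (3.31, adjusted p = 0.0275). Pycard, the inflammasome adaptor, also named after its values were seen, was at 0, 0.222 and 0 FPKM in Aged + LRP1high, and at 3.80 and 1.41 in Aged + LRP1low.

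Genes whose pattern over the 12 oocyte libraries was most like the mean standardised level of the 8 were Slbp (Pearson r = 0.989), Zp2 (r = 0.989), Tcl1 (r = 0.989), C87499 (r = 0.985) and C86187 (r = 0.985). Slbp binds histone mRNA, and Zp2 is a protein of the egg coat. Single members had as closest genes Npm1 for Nlrp4a (r = 0.994), Mphosph6 for Nlrp4f (r = 0.994), Parp12 for Nlrp9a (r = 0.989), Rdx for Nlrp14 (r = 0.988), Polr2c for Nlrp9b (r = 0.983), Gm10259 for Nlrp9c (r = 0.982), Obox5 for Nlrp4b (r = 0.980) and Tcstv1 for Nlrp2 (r = 0.967). Between members, r ran from 0.674 for Nlrp9b with Nlrp9c to 0.980 for Nlrp4a with Nlrp4f. These values describe 12 libraries that share depth and oocyte RNA content, and carry no test.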

How the data were processed

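RNA was polyA RNA from oocytes and granulosa cells. The labels name a KAPA Stranded kit and the study's methods name Smart-seq2, so use of strand in counting is not given. Per the submitters' processing notes, HISAT2 2.2.1 and StringTie 1.3.3b were run. The deposited tables give the authors' FPKM, TPM and coverage (signal, as mean read depth) per gene for 55335 genes. The notes name mm9, but 54577 of these genes have the coordinates of GENCODE M21 on GRCm38. Gene IDs that occurred more than once in a table (4 to 21 per table) were summed. Read counts were not used here.

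FPKM was analysed as log2(FPKM + 1), keeping genes with a mean of 1 FPKM or more (28004 in oocytes, 13002 in granulosa cells, 21767 in both). limma 3.58.1 in R 4.3.3 (lmFit, eBayes) was fitted over all groups of a cell type, or of both for comparisons between them, with Benjamini-Hochberg adjustment over all genes tested. Calls required both an adjusted p under 0.05 and a change of over 1.5-fold. The script was tested on simulated data. Every fitted comparison needed at least 2 libraries a group, so granulosa Young and Aged + Unsorted (1 library each) were compared with nothing.

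Named genes were the 8 members, Nlrp5, the genes of 3 lists (maternal complex, other Nlrp, inflammasome) that were called, and the genes with the highest Pearson r over the 12 oocyte libraries, 5 for the mean of the members' z-scores and 1 for each member. Nlrp3 and Pycard were named outside this rule, after their values were seen. The members and lists were chosen with earlier results of these data known. Alternatives were TPM, a pseudocount of 0.1, no filter, a filter of 10 FPKM, quantile normalization, scaling to 9 oocyte markers, trend and robust eBayes, only the groups compared, a replicate block, and leaving out each library. Motifs and sequences came from RefSeq windows. FPKM and coverage limit the precision at low depth. For genes with a single exon and a single transcript, 1 fold of mean depth was worth 0.294 to 3.60 FPKM in the oocyte libraries. It was worth more for Nlrp9c, which was at 4.17 FPKM with a depth of 0.294 in Aged + LRP1low 2.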

Additional observations from a re-analysis of the deposited data

Results flagged for a closer look

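Signals were seen in the 2 granulosa groups of a single library, which entered no comparison, above the level of both granulosa Aged libraries. In granulosa Aged + Unsorted 1, FPKM was 45.8 for Nlrp2, 116 for Nlrp4a, 141 for Nlrp4b, 332 for Nlrp4f, 68.2 for Nlrp9a, 83.3 for Nlrp9b, 167 for Nlrp9c and 793 for Nlrp14. The highest granulosa Aged values were 0.486 for Nlrp2, 0.229 for Nlrp4a, 0.251 for Nlrp4b, 0.250 for Nlrp4f, 0.411 for Nlrp9a, 0.207 for Nlrp9b, 0.488 for Nlrp9c and 0.734 for Nlrp14. The median of the oocyte markers in this library was 800 FPKM, against 0 in both granulosa Aged libraries, and their part in the signal was not tested.

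In granulosa Young 1, FPKM was 1.04 for Nlrp4a, 4.61 for Nlrp4b, 7.97 for Nlrp4f, 0.917 for Nlrp9c and 17.2 for Nlrp14, and the oocyte marker median was 4.36 FPKM. Nlrp2, Nlrp9a and Nlrp9b were listed at 0 there. No group held 4 or more libraries, so a single library far from its group could not be tested for.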

How the results depend on the processing

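Of the values of single members, 2 of 104 changed sign with TPM, 5 of 104 with a pseudocount of 0.1, 25 of 104 with quantile normalization and 0 of 104 both without a filter and with trend and robust eBayes, over 13 comparisons. Scaling to 9 oocyte markers changed 38 of 48 signs in the 6 oocyte comparisons and left 0 members called. Over all genes, the scaled fits called 23903 of 28004 in LRP1high minus LRP1low and 0 of 28004 in each other comparison. Signs after scaling carry the limit at low values given with the fits. For LRP1high minus LRP1low oocytes (2 called), 4 members had an unadjusted p under 0.05. With a pseudocount of 0.1, 0 members and 0 of 28004 genes were called. With a filter of 10 FPKM, 1 member and 161 of 4066 genes were called, and with quantile normalization 1 and 704 of 28004. Fitting only the groups compared called 5 members, but also 24262 of 36274 genes. For oocytes minus granulosa cells in Aged (1 called), 6 had an unadjusted p under 0.05, and a pseudocount of 0.1 called 4 (1475 of 21767 genes). No filter, a filter of 10 FPKM and quantile normalization called 0 members, and 1632 of 54558, 0 of 3494 and 628 of 21767 genes. Trend and robust eBayes and only the groups compared called 0 members, and 377 of 21767 and 0 of 23964 genes. In Aged + LRP1high (4 called), 8 had an unadjusted p under 0.05. Without a filter 1 member was called (169 of 54558 genes), and with a filter of 10 FPKM 8 were (1422 of 3494). Only the groups compared called 8 (1657 of 13047). In Aged + LRP1low that setting called 2 members, but also 24946 of 41187 genes. An unadjusted p under 0.05 was reached by 1 member in granulosa LRP1low minus Aged and in the LRP1low interaction. The same held for LRP1high minus Young and for LRP1low minus Aged oocytes. In the latter, quantile normalization called 1 member and 228 of 28004 genes. The cause of these shifts was not tested.

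Scaled to the 9 markers, signs reversed for LRP1high minus LRP1low in Nlrp2 (-3.94), Nlrp4a (-1.75), Nlrp4b (-2.98), Nlrp4f (-1.25), Nlrp9a (-1.14), Nlrp9b (-3.32), Nlrp9c (-2.75) and the median of members (-2.25). They also reversed for Aged minus Young (Nlrp14 -0.54, median -0.49), Unsorted minus Aged (Nlrp14 -0.75, median -0.82), LRP1high minus Aged (median -1.06), LRP1high minus Young (Nlrp14 -0.53, median -1.29) and LRP1low minus Aged (Nlrp4f 0.72, median 1.23). Quantile normalization reversed the median of Aged minus Young (-0.49) and, for oocytes minus granulosa cells in Aged + LRP1low, Nlrp14 (-2.50) and the median (-1.54). Without oocyte Young 1 and Aged 1, a choice made after seeing the data, the median of LRP1high minus Aged was -0.60.

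With 1 library left out, oocytes minus granulosa cells in Aged + LRP1high called from 1 to 6 members. These were 1 without granulosa LRP1high 2 (325 of 22388 genes), 2 without oocyte LRP1high 1 (438 of 22556) and 6 without oocyte LRP1high 3 (1685 of 22679). For LRP1high minus LRP1low, 0 members and 0 genes were called without any 1 LRP1high library. Counts are not given for fits that left 1 library in a group. The Nlrp14 difference ranged from -1.46 to 2.37 for Aged minus Young (median of members -1.41 to 2.62) and from -1.59 to 2.58 for oocytes minus granulosa cells in Aged + LRP1low. The median of LRP1high minus Aged ranged from -0.60 without Aged 1 to 3.28 without Aged 2. A lone library left in a group was assumed to vary like the other groups.

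A replicate block called 0 members and 0 of 28004 genes in LRP1high minus LRP1low oocytes, and changed 1 of 104 signs. Whether the shared numbers pair the libraries could not be settled. Among same-number pairs, 4 of 21 in oocytes and 1 of 6 in granulosa cells deviated together (r over 0.1). Among pairs of unlike number these were 11 of 36 and 1 of 10. Deviations in a group of 2 libraries mirror each other, so the pairs are not independent. In the Aged + LRP1low oocyte libraries a mean depth of 0.232 to 1.48 over the members limits every level.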
